A study of Mus musculus with 2 samples.

Results

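The genes described here carry the co-stimulatory signal that osteoclast precursors need beside RANKL: 2 membrane adaptors with an immunoreceptor tyrosine-based activation motif (ITAM), 3 receptors that use such adaptors, 3 tyrosine kinases, a scaffold and a phospholipase. They were chosen by name (Tyrobp, Fcer1g, Oscar, Trem2, Siglec15, Syk, Btk, Tec, Blnk and Plcg2), and all 10 were found among the 16614 genes listed. The study compared bone marrow macrophages of wild-type (WT) and Foxo3 knockout (Foxo3 KO) mice of strain C57BL/6, with 1 library per genotype. Cells of both genotypes were flushed from femur and tibia, cultured for 3 days in M-CSF, which makes macrophages of marrow precursors, and treated for 2 days with RANKL, the signal that turns macrophages into osteoclasts. FoxO3 is a forkhead transcription factor, and the series title ties an isoform of it to restraint of osteoclasts. The labels do not give the allele of the knockout, the age or sex of the mice, or whether animals were pooled.

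An ITAM is a short stretch of cytoplasmic tail with a pair of tyrosines, each followed closely by a leucine or isoleucine. The receptors have almost no signalling tail of their own and hold an adaptor in the membrane instead. When the receptor is engaged, Src family kinases phosphorylate the ITAM tyrosines, Syk docks on them, and Btk and Tec, held by the scaffold BLNK, activate phospholipase C gamma 2. The calcium released in this way acts through calcineurin on NFATc1, the transcription factor of osteoclast differentiation, and mice that lack both adaptors form few working osteoclasts and have dense bones.

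The motif that gives the group its name is shown for both adaptors as coding DNA, from the GENCODE M21 transcripts on GRCm38. The codons of the pair of tyrosines and of the leucines that follow them are in capitals.
Tyrobp: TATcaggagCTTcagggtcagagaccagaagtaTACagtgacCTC
Fcer1g: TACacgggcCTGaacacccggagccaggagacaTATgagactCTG
Both stretches run for 45 bases, with 7 residues between the first leucine and the second tyrosine. In Tyrobp it codes for residues 92 to 106 of 114 and lies on the plus strand of chromosome 7. In Fcer1g it codes for residues 65 to 79 of 86 and lies on the minus strand of chromosome 1. Each ITAM is split by an intron at the same place: the first 6 bases are in exon 4 of 5 and the other 39 in exon 5. For Tyrobp these exon pieces are chr7:30415670-30415675 and chr7:30417344-30417382, and for Fcer1g they are chr1:171230067-171230072 and chr1:171229889-171229927. A search for tyrosine, 2 residues, leucine or isoleucine, 6 to 12 residues and the same again found the pattern in the 2 adaptors and in none of the other 8 proteins. The pattern is loose, since 6.48% of 21585 mouse proteins held it.

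Values are FPKM, fragments counted per unit of transcript length and library depth, as read from the deposited numbers. The log2 ratio used throughout is log2(KO + 1) minus log2(WT + 1), a scale on which low genes appear closer together than they are. With 1 library per group no value has a replicate error and nothing could be tested, so each difference describes these 2 libraries. In place of a test, a gene was counted as higher or lower by size at 1.2-fold or more on this scale (a log2 ratio of 0.26 either way), and as far apart at 2-fold. The genotype label was checked on Foxo3, which read 10.3 FPKM in WT cells and 0.548 FPKM in Foxo3 KO cells. The KO library was an estimated 1.40 times as deep as the WT library, judged from 1657 genes of very few reads, and absolute read totals are not known here. In bulk RNA of this kind, fewer cells of a type and less RNA per cell cannot be told apart.

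All 10 genes were well expressed, at 10 FPKM or more in each library. Trem2 and Tec were lower by size in the Foxo3 KO library, no gene of the group was higher by size, and none differed by 2-fold. By sign, 7 of the 10 were higher and 3 lower, with a median log2 ratio of 0.05. Over the 10003 genes measured (1 FPKM or more in at least 1 library) 57.6% were above 0 and 42.4% below, with a median of 0.03, so the split of the group is near that background. By size, 4.93% of measured genes were higher and 6.23% lower, and at 2-fold the shares were 0.12% and 0.2%. The mean over the 10 genes had the opposite sign to the median, -0.03, because Trem2 and Tec lay farther from 0 than any of the others.

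**Figure D1:**
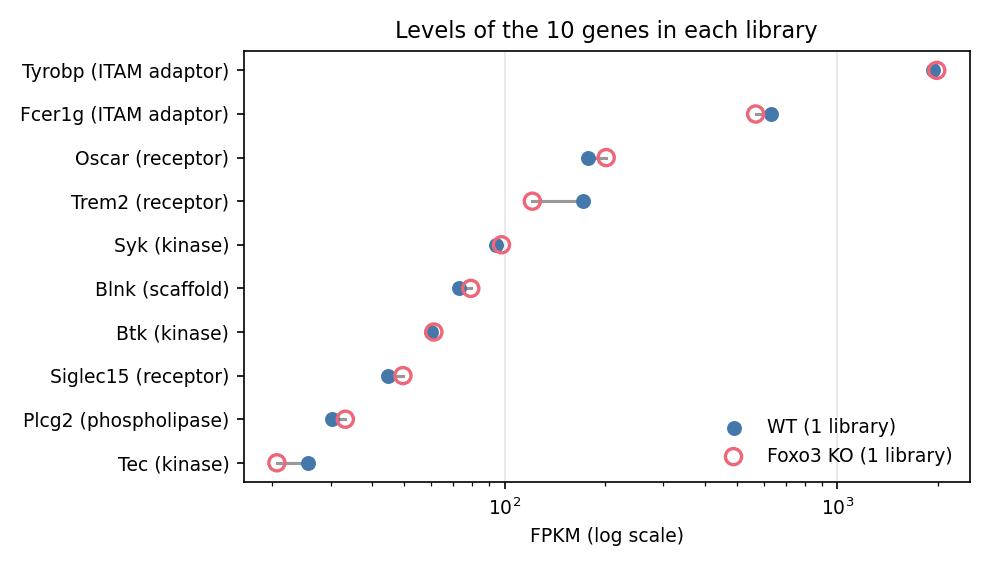
FPKM (log scale) of the 10 genes in the WT library (filled circles) and the Foxo3 KO library (open circles), 1 library each, ordered by WT level. The order was the same in both libraries, and the widest gaps were those of Trem2 (172 and 121 FPKM) and Tec (25.8 and 20.7 FPKM).

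The order of levels was the same in both libraries: Tyrobp, Fcer1g, Oscar, Trem2, Syk, Blnk, Btk, Siglec15, Plcg2 and Tec. FPKM is per length, which allows levels to be set between genes, but the transcript lengths used are not given. Comparisons between genes, here and below, rest on those lengths. Adaptors were far above receptors and kinases, with Tyrobp the 21st most abundant of all listed genes in WT cells and the 22nd in Foxo3 KO cells. Tec, the lowest, was 3220th and 3868th. Oscar and Trem2 were close neighbours in WT cells and no longer so in Foxo3 KO cells. There is no replicate spread to say which other neighbours differ.

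Tyrobp (chr7:30413760-30417585, plus strand) encodes DAP12, the adaptor of TREM2 and Siglec-15. Its level was 1937 FPKM in WT cells against 1988 FPKM in Foxo3 KO cells, 1.03-fold apart, with a log2 ratio of 0.04. Fcer1g (chr1:171229572-171234365, minus strand) encodes the common gamma chain of Fc receptors, the adaptor of OSCAR. It read 633 FPKM in WT cells and 568 FPKM in Foxo3 KO cells, a log2 ratio of -0.16. The pair thus went opposite ways by small amounts, neither by 1.2-fold. Tyrobp was 3.06 times as abundant as Fcer1g in the WT library and 3.50 times in the KO library. Summed, the adaptors stood at 2570 FPKM and 2556 FPKM, far above the receptors that use them: the ratio of the adaptor sum to the sum of the 3 receptors was 6.50 in WT cells and 6.86 in Foxo3 KO cells.

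Among the receptors, Trem2 stood lower and the other two slightly higher in Foxo3 KO cells. Trem2 (chr17:48346401-48354147, plus strand) encodes a receptor for lipids and lipoproteins found on macrophages, microglia and osteoclast precursors, and its loss in humans causes bone cysts with dementia. It read 172 FPKM in WT cells and 121 FPKM in Foxo3 KO cells, 1.42-fold lower, with a log2 ratio of -0.50. Of the 6165 genes at 10 FPKM or more in at least 1 library, 1.17% had a log2 ratio as low. Oscar (chr7:3609813-3616157, minus strand) encodes the osteoclast-associated receptor, which binds collagen. It read 178 FPKM in WT cells and 202 FPKM in Foxo3 KO cells, a log2 ratio of 0.18, and 10.9% of those genes were as high. Siglec15 (chr18:78043614-78057395, minus strand) encodes a sialic acid-binding receptor that pairs with DAP12 in osteoclasts. It was the least abundant receptor, at 44.6 FPKM in WT cells and 49.5 FPKM in Foxo3 KO cells (log2 ratio 0.15).

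The balance among these 3 receptors therefore differed between the libraries. Oscar and Trem2 were nearly level in WT cells, with 1.03 times as much Oscar, while in Foxo3 KO cells Oscar was 1.67 times as abundant. Trem2 made up 43.6% of the summed receptor FPKM in WT cells and 32.5% in Foxo3 KO cells. The share of Oscar was 45.1% and 54.2%, and that of Siglec15 was 11.3% and 13.3%. The ratio of Oscar to Siglec15 hardly moved, at 3.99 and 4.08. The sum of the 3 was 395 FPKM and 373 FPKM, 0.943 times as high in the KO library.

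**Figure D2:**
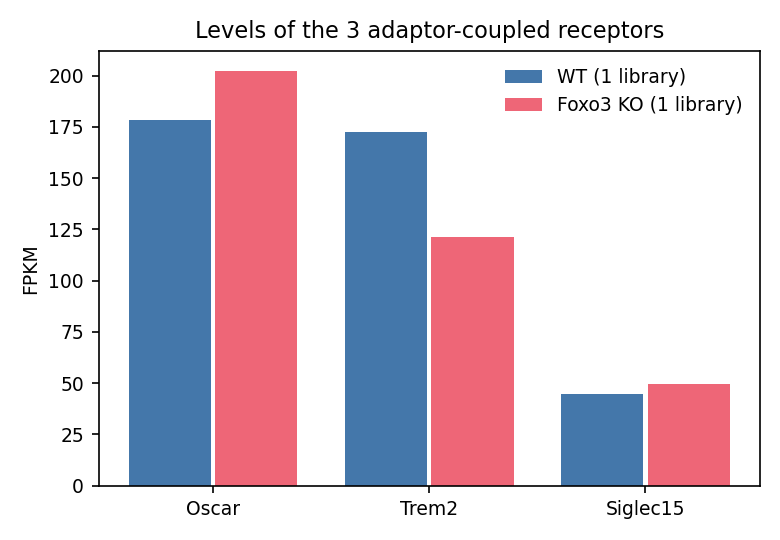
FPKM of Oscar, Trem2 and Siglec15 in the WT and Foxo3 KO libraries (bars, 1 library each, no error available). Oscar (178 and 202 FPKM) and Trem2 (172 and 121 FPKM) were nearly level in WT cells and apart in Foxo3 KO cells.

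The start-site regions of these diverging receptors are shown because they bear on how far their promoters resemble each other. Sequences are from RefSeq on GRCm38.p6, on the strand of the gene, from 250 bases before to 50 bases after the start. Capitals mark the core letters of the PU.1 site, GAGGAA, or their complement TTCCTC. PU.1 is the transcription factor that sets up the macrophage and osteoclast lineage.
Trem2: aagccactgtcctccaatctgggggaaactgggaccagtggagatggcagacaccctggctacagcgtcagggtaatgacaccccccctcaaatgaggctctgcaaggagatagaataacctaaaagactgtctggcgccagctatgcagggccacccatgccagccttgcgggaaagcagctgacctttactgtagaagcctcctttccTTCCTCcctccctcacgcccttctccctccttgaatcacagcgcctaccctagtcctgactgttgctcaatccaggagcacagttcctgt
Oscar: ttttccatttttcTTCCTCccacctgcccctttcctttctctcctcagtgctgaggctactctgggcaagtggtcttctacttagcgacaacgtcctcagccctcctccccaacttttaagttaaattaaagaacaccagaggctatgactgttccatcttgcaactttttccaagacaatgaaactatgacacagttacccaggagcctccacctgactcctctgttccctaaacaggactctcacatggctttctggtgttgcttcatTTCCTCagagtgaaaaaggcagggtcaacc
The Trem2 window is chr17:48346151-48346450 and the Oscar window chr7:3616108-3616407. Both hold the letters as TTCCTC, which begin 40 bases before the start of Trem2, and 237 bases before and 20 bases after the start of Oscar. Of the 9 windows searched, from 8 genes of the group, 4 held them (Oscar, Trem2, Btk and the second of 2 windows of Syk). The letters were in 28.3% of 32851 mouse windows of this length. Tyrobp had no entry, and Siglec15 was not searched. The FoxO core letters GTAAACA or their complement TGTTTAC were in 3.65% of all windows and in none of the 9 searched here, which says only that these letters are not in these windows.

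The kinases were close between the libraries except for Tec. Syk (chr13:52583173-52648792, plus strand), which binds the phosphorylated ITAM, read 94.3 FPKM in WT cells and 97.9 FPKM in Foxo3 KO cells (log2 ratio 0.05). Btk (chrX:134542336-134583570, minus strand), the kinase lost in X-linked agammaglobulinaemia, read 60.1 and 61.3 FPKM. Its log2 ratio of 0.03 was 0.01 after trimmed-mean scaling, so its place above 0 has little meaning. Tec (chr5:72755716-72868483, minus strand), which acts beside Btk in osteoclast precursors, read 25.8 FPKM in WT cells and 20.7 FPKM in Foxo3 KO cells. That is 1.24-fold lower, with a log2 ratio of -0.30, and 3.81% of the genes at 10 FPKM or more were as low. With a pseudocount of 5 FPKM its log2 ratio was -0.2591, just short of 1.2-fold.

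Btk and Tec are the closest relatives in the group: their proteins, of 659 and 630 residues, share 57.7% of aligned residues. Btk and Syk share 34.1%. Btk was 2.33 times as abundant as Tec in WT cells and 2.96 times in Foxo3 KO cells. Their relatives Bmx and Txk were under 0.1 FPKM in both libraries. The 3 kinases together came to 180.2 FPKM in WT cells and 179.9 FPKM in Foxo3 KO cells.

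Blnk (chr19:40928927-40994535, minus strand), the scaffold that brings Btk and Tec to the phospholipase, read 73.1 FPKM in WT cells and 79.2 FPKM in Foxo3 KO cells (log2 ratio 0.11). Its haematopoietic relative Lcp2, which encodes SLP-76 and was picked after its values were seen, read 89.0 and 91.7 FPKM. Plcg2 (chr8:117498291-117635142, plus strand) encodes phospholipase C gamma 2, which makes the messenger that releases calcium. It read 30.4 and 33.2 FPKM, a log2 ratio of 0.13. Its relative Plcg1 was far lower, at 4.66 and 5.16 FPKM, so Plcg2 was 6.51 times as abundant in WT cells and 6.44 times in Foxo3 KO cells. Scaffold and phospholipase were thus both slightly higher, short of 1.2-fold. In GENCODE M21 the exons of all 10 genes overlap no other annotated gene.

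**Figure D3:**
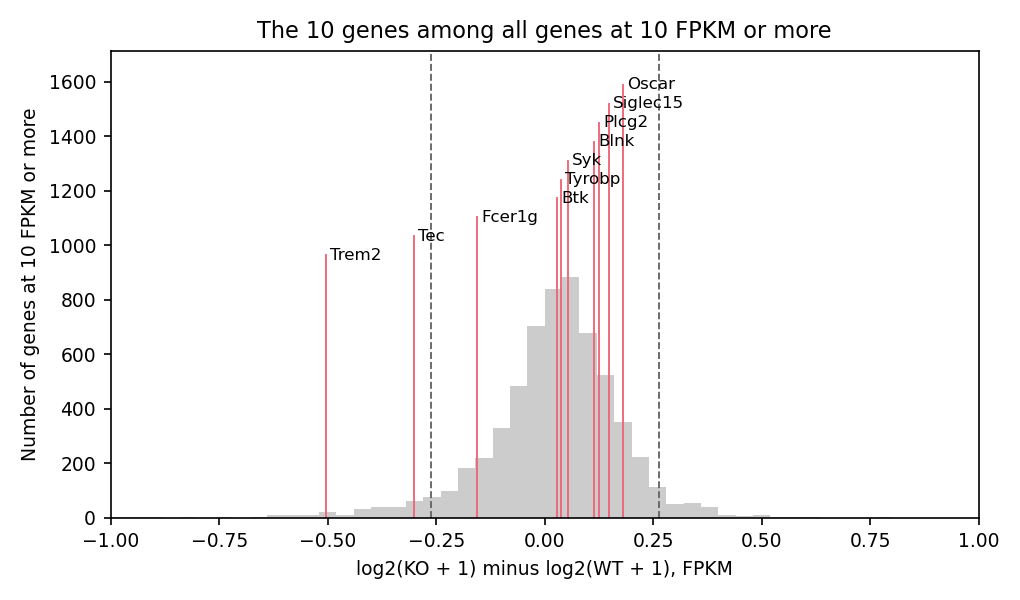
Histogram of the log2 ratio of all 6165 genes at 10 FPKM or more, with the 10 genes as labelled lines (line height carries no value) and 1.2-fold in either direction as dashed lines. The 19 genes beyond 1 either way are outside the axis. Trem2 and Tec lie left of the lower dashed line, and the other 8 genes lie between the dashed lines.

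Markers of cell types were set beside these values, because several of the 10 genes are also known from other cells. Macrophage markers were lower in Foxo3 KO cells in 18 of 19 measured cases, against 42.4% of all measured genes. After trimmed-mean scaling or median centring 19 were lower, against 4821 or 5001 of the 10003 measured genes. By size 8 of the 19 were lower (5 with a pseudocount of 5 FPKM) and 0 higher. Of all measured genes 6.23% were lower by size and 4.93% higher. The median log2 ratio of the macrophage markers was -0.24, and their summed level was 13819.6 and 11433.9 FPKM. Trem2 lay within the range of these markers, with Mertk and Mrc1 alone of the 19 below it, and Tec lay above 5 of them. The defining markers varied: Csf1r, the M-CSF receptor, read 697 and 695 FPKM, and Lyz2, lysozyme, 7501 and 5674 FPKM. Lyz2 made up the largest part of the summed level and of its difference between the libraries. Osteoclast markers other than Oscar were above 0 in 8 of 11 cases (median log2 ratio 0.09), against 57.6% of all measured genes, and by size 1 was higher and 1 lower. Acp5, whose exons overlap another annotated gene, and Ctsk, the resorption enzymes, had log2 ratios of 0.16 and 0.17. The 3 below 0, picked after their values were seen, were the integrin gene Itgb3 (-0.28), the calcitonin receptor gene Calcr (-0.06) and the fusion gene Dcstamp (-0.02), and the gene higher by size was Car2 (0.32). The part of cell makeup in the values of Trem2 and Oscar was not tested.

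B cells use Syk, Btk, Blnk and Plcg2 for their antigen receptor, and NK cells and mast cells use the adaptors. The 11 B cell markers summed to 2.55 FPKM in WT cells and 2.08 FPKM in Foxo3 KO cells. Pax5 and Igll1 were at 0 in both, and Cd22, whose exons overlap an unnamed model, was the highest at 1.25 FPKM. The 12 T and NK cell markers summed to 0.24 and 0.422 FPKM. The 10 mast cell and basophil markers summed to 0.764 and 0.63 FPKM, and Fcer1a and Ms4a2, which encode the other chains of the IgE receptor, were listed at 0. Levels of 20 FPKM or more of the kinases, scaffold and phospholipase thus stood beside lymphoid and mast cell markers at or near 0. Neutrophils also express Tyrobp and Fcer1g, and their markers summed to 163 and 158 FPKM, with S100a8 at 70.2 and 67.0 FPKM and S100a9 at 53.6 and 55.4 FPKM. Platelet markers were near 0 apart from Pf4, at 55.7 and 26.2 FPKM. Of the dendritic cell markers, Bst2 read 140 and 117 FPKM and Clec10a 37.4 and 33.2 FPKM, and the stromal markers Col1a1 and Col1a2 read at most 3.35 FPKM.

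The wider pathway was read from 5 lists with 107 entries, all found. The background for the counts by size in each list is that of all measured genes, 6.23% lower and 4.93% higher. By sign it is 57.6% higher and 42.4% lower. Scaling moves this background too. Of the 10003 measured genes 5182 were higher and 4821 lower after trimmed-mean scaling, and 5001 each after median centring. The list of other ITAM-coupled receptors leaned lower in Foxo3 KO cells. Of 19 measured, 12 were lower and 7 higher, and by size 8 were lower and 2 higher, with a median log2 ratio of -0.18 against 0.03 for all measured genes. The list also holds Hcst, an adaptor without an ITAM, and Plxna1, a plexin. Without this pair, an alternative chosen after the data were seen, 10 of 17 were lower, 7 of them by size. Fcgr3, an IgG receptor that needs Fcer1g, was at 187 FPKM in WT cells but 104 FPKM in Foxo3 KO cells (log2 ratio -0.83), and it has near copies among the Fc receptors. Clec4d, a C-type lectin that also uses Fcer1g, was at 112 and 75.4 FPKM (-0.57). The highest at 10 FPKM or more were Clec4n, which encodes dectin-2, at 40.2 and 45.2 FPKM, and Nfam1, a receptor with an ITAM in its own tail, at 116 and 128 FPKM. The pair higher by size, Sirpb1a and Sirpb1b, reached only 1.63 and 1.28 FPKM and are similar copies. By size 1 was higher after median centring, and 0 with a pseudocount of 5 FPKM or a minimum of 10 FPKM. Plxna1, reported to join TREM2 and DAP12 in a complex and picked after its values were seen, read 46.9 and 37.9 FPKM. Macrophage markers, 18 of 19 of which were lower, shared Fcgr1 with this list, and their part in its values was not tested.

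Src family kinases, which phosphorylate the ITAM, were level or slightly higher. Of 12 further kinases listed 5 were measured, 3 higher and 2 lower, and by size 1 was higher and 0 lower. Src read 122 FPKM in WT cells and 139 FPKM in Foxo3 KO cells (log2 ratio 0.18), and Lyn, which overlaps an unnamed model, 63.7 and 62.2 FPKM. The gene higher by size was Fgr, at 2.66 and 3.40 FPKM, and it fell short of 1.2-fold (0.25) after trimmed-mean scaling.

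Adaptors and effectors divided evenly, 13 higher and 13 lower of 26 measured, and 11 against 15 after either scaling. By size 2 were lower: Lat2, a membrane adaptor whose exons overlap Rfc2, at 125 and 96.9 FPKM (-0.36), and Cbl, a ubiquitin ligase that ends kinase signals, at 17.8 and 14.4 FPKM (-0.29). With a pseudocount of 5 FPKM only 1 was lower by size, since Cbl dropped out. By size 1 was higher: Malt1, of the complex that carries ITAM signals to NF-kB, at 18.8 and 22.9 FPKM (0.27), which fell short (0.25) after trimmed-mean scaling. Prkcd, a protein kinase C, followed at 104 and 122 FPKM.

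Calcium and NFAT genes lay close to 0. Of 18 measured 7 were higher and 11 lower, and the median was -0.01. After either scaling 5 were higher and 13 lower, settings that also lowered the share of all measured genes above 0. Nfatc1 read 181 FPKM in WT cells and 206 FPKM in Foxo3 KO cells (log2 ratio 0.19), the highest of the list, and Orai2, a calcium channel gene, 49.2 and 52.3 FPKM. Rcan1, an inhibitor of calcineurin that is itself induced by NFAT, read 76.5 and 62.9 FPKM (-0.28), the only 1 lower by size, and Creb1 read 10.4 and 9.40 FPKM. The transcription factor and its feedback inhibitor thus went opposite ways, Nfatc1 by less than 1.2-fold.

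Inhibitory receptors and phosphatases, which oppose the ITAM kinases, split 10 higher and 11 lower of 21 measured, with a median of -0.003. By size 6 were lower and 0 higher. The lowest at 10 FPKM or more were Dok2, an adaptor that recruits a Ras inhibitor, at 16.0 and 10.5 FPKM (-0.57), and Lilrb4, an inhibitory receptor with similar copies, at 119 and 84.0 FPKM (-0.50). The highest were Dok3 at 81.4 and 96.8 FPKM (0.25) and Ptpn6, which encodes the phosphatase SHP-1 and overlaps an unnamed model, at 188 and 213 FPKM (0.18). Pooled without repeats, the 5 lists held 89 measured genes, of which 17 were lower by size and 4 higher. Of the 10 genes described here 2 were lower and 0 higher, and of all measured genes 6.23% and 4.93%.

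**Figure D4:**
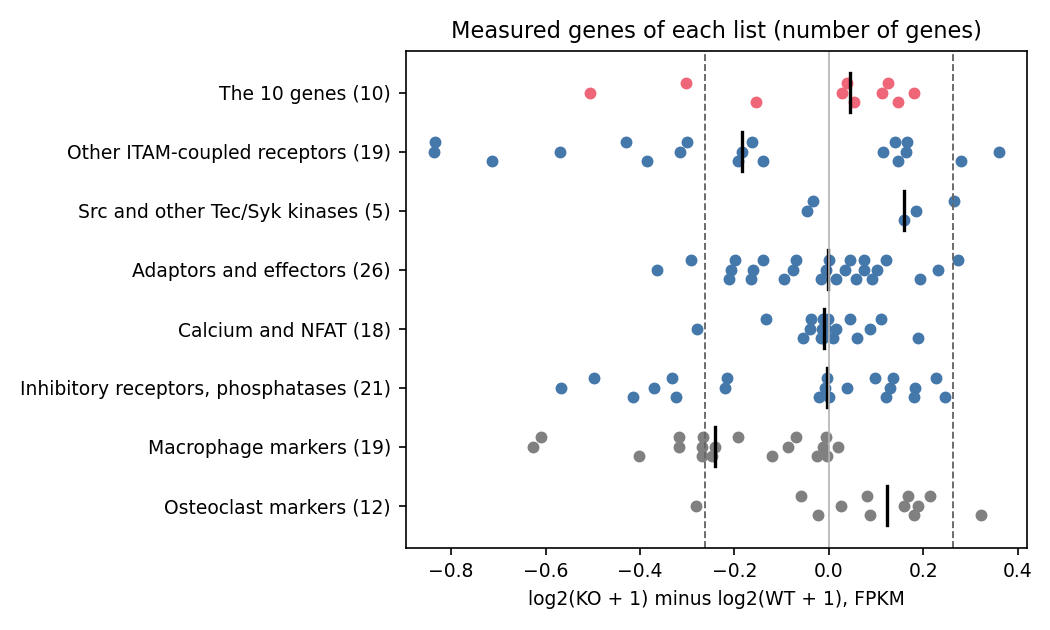
Log2 ratio of each measured gene of the 10 genes, the 5 pathway lists and the macrophage and osteoclast markers (points, shifted vertically for legibility), with the median of each list as a black bar and 1.2-fold as dashed lines. Medians were 0.05 for the 10 genes, -0.18 for the ITAM-coupled receptor list (Hcst and Plxna1 included), -0.24 for macrophage markers and 0.12 for osteoclast markers, Oscar included.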

How the data were processed

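Libraries of poly-A RNA were prepared by an Illumina TruSeq protocol, per the labels. The deposited values were taken as FPKM from the numbers themselves, since no header or label names the unit: they are not whole, and the columns sum to 530701 (WT) and 540601 (KO). TopHat, edgeR and mm10 are named in the submitters' processing notes. Quantifier, annotation and use of strand: not given in the sources used here. A constant of 0.000001 present in every value was subtracted. The files hold no counts, so no count model was fitted. Log2 ratios used a pseudocount of 1 FPKM and genes at 1 FPKM or more in at least 1 library. The relative depth came from ratios of genes under 0.15 FPKM.

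The 10 genes and the lists were chosen with earlier results of these data known. Named in the text are the 10 genes, the 2 highest and 2 lowest genes at 10 FPKM or more of each pathway list, the 2 most abundant of each marker list (those under 1 FPKM are not given) and Foxo3. 1 gene this rule takes is left out of the text. Any other gene was picked after its values were seen. Of 102 marker entries 100 were found. Alternatives were trimmed-mean scaling (KO values divided by 1.02), median centring, a pseudocount of 0.25 or 5 FPKM, a minimum of 0 or 10 FPKM, and size rules of 1.1-fold and 1.5-fold. Coordinates and coding sequences are from GENCODE M21 (GRCm38), with principal transcripts preferred. The log2 ratio, the minimum of 1 FPKM, the trimmed-mean scaling and a size rule of 1.5-fold were tested on simulated data. The planted changes were of 2-fold, in genes at 10 FPKM or more. Other steps, such as the 1.2-fold rule, the depth estimate and the sequence searches, were not tested in this way. Python 3.11.15, numpy 2.4.6, pandas 2.3.3, Biopython 1.88 and matplotlib 3.10.9 were used.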

Additional observations from a re-analysis of the deposited data

How the results depend on the processing

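The signs of all 10 genes held under both scalings and both other pseudocounts, and all 40 recomputed log2 ratios moved by less than the spread of 500 genes of like level. The split of 7 higher and 3 lower was the same under those settings and under no minimum and a minimum of 10 FPKM. The number lower by size was 1 with a pseudocount of 5 FPKM, since Tec dropped out, and 0 at 1.5-fold, and at 1.1-fold 2 were higher (Oscar and Siglec15) and 3 lower, with Fcer1g added. The mean over the 10 genes, -0.0276, had the opposite sign to the median. Of 172 recomputed list counts 153 stayed within 1.5 times, and the 19 others were mostly counts of few genes. No paired analysis was possible because there is 1 library per genotype, and none could be left out. Without read counts no interval was given, and precision is lower for low genes in the WT library, the shallower by the estimate.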

Other observations

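Genes that lie beside the 10 genes were looked up within 100 kb on GRCm38. Of 62 listed neighbours 38 were measured. By size 3 of the 38 were higher in Foxo3 KO cells and 2 lower, against 4.93% and 6.23% of all measured genes. Hcst, which encodes DAP10, an adaptor that recruits phosphoinositide 3-kinase in place of Syk, lies 127 bases from Tyrobp and read 25.2 FPKM in WT cells and 22.4 FPKM in Foxo3 KO cells. Tyrobp was 76.8 and 88.6 times as abundant. Txk, a Tec-type kinase of T cells, lies 2939 bases from Tec and was under 0.1 FPKM in both libraries.

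The other genes of the Trem cluster around Trem2 were at low levels. Treml4, 71041 bases away, read 1.44 and 0.491 FPKM (log2 ratio -0.71), and Trem1, Trem3, Treml1 and Treml2 stayed under 1 FPKM. Beyond the cluster, Nfya and Oard1 had log2 ratios of 0.01 and -0.01. All 8 measured neighbours of Oscar lay between 0.01 and 0.16, against 0.18 for Oscar itself. Of all measured genes 57.6% were above 0, with a median of 0.03. All genes of these neighbourhoods were picked by position, and those named were picked after their values were seen.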
